A study of Mus musculus with 24 samples.

Results

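The comparison described here sets the messenger RNA held by tagged ribosomes at day 27 against the whole-tissue RNA of the same region at the same day. It takes all libraries with a labelled treatment time of 27 days, which are 8 of the 24 libraries in the series, 4 of ribosome immunoprecipitate (IP) and 4 of input. The mice were female C57BL6 mice that carried a tamoxifen-inducible Cre under Nestin control (Nestin-CreERT2) and the RiboTag allele, in which Cre recombination makes a cell build its ribosomes with an HA-tagged RPL22 protein. All groups carried both alleles and all received tamoxifen daily for 5 days at 160 mg/kg when 9 to 11 weeks old. The RiboTag allele was carried beside a wild-type one. Running mice were housed singly with a wheel, and sedentary mice in like cages whose wheel was glued. At day 27 there were 2 IP and 2 input libraries from running mice and 2 IP and 2 input libraries from sedentary mice, labelled e and f. The labels call the IP material immature neurons in dentate gyrus and the input dentate gyrus. Neither the number of mice behind a library nor their separateness between libraries is stated in the labels. The p-values therefore cover only the scatter of these libraries, part or all of which may be technical. Days 11 and 18 have 8 libraries each of the same layout and are used below only where day 27 is set against them.

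The subgranular zone of the dentate gyrus keeps a pool of radial glia-like stem cells that express the intermediate filament Nestin. These cells give rise to dividing progenitors, then to neuroblasts and immature granule neurons that carry doublecortin, and these mature into calbindin-positive granule neurons over the following weeks. Recombination by the Nestin driver marks the stem cells present during tamoxifen and everything they later become, so the tagged ribosomes at a late time can sit in cells of several stages at once. An IP enriches RNA bound to tagged ribosomes over the RNA of the tissue and does not remove the latter completely.

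The 8 libraries were alike within an arm. Across genes, Pearson's r of log2(TPM + 1) was 0.974 to 0.978 between IP libraries, 0.973 to 0.984 between input libraries and 0.926 to 0.956 between an IP and an input library. Values are TPM, a measure of transcript abundance scaled by length and by library total, which keeps no record of sequencing depth, so no depth or counting interval can be given. Genes listed at 0 made up 9.51% to 17% of the table in IP libraries and 7.17% to 10.6% in input libraries. A few RNAs took large shares of the total: Malat1 held 2.93% to 4.04% in IP and 1.07% to 1.26% in input, and the predicted gene Gm20594 held 1.67% to 2.04% in IP and 7.57% to 11.4% in input. Olfactory receptor genes, which the hippocampus is not known for, were used as a gauge of background, and their level is given with the results it moves with.

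Of 18731 genes tested at day 27, 7430 were higher in IP than in input, which is 39.7% of the genes tested, and 3085 were lower, which is 16.5%. The test was limma on log2(TPM + 1) with Benjamini-Hochberg adjusted p below 0.05. Past a 2-fold difference stood 1949 genes higher and 882 genes lower. The median difference over all genes was 0.26 on the log2(TPM + 1) scale, and each list below is read beside that value. The list counts at day 27 are read beside the shares of 39.7% and 16.5%. When the libraries were rescaled by medians of ratios, the median of all genes moved by -0.29 to -0.02, and 4210 genes were higher and 5211 lower. The higher genes were 70.7% of the calls before that rescaling and 44.7% after it. Genes called under both scalings numbered 7295, all with the same sign. Members named because they were the few exceptions to a list or were not called were chosen after their values were seen. The 12 largest differences in each direction were taken only from genes whose arms did not overlap. For those genes the lack of overlap follows from that choice. All log2 differences below are on the log2(TPM + 1) scale with their standard error, a scale that understates the change of low genes. Means are given ± SD of 4 libraries, and single values are listed in the order running e, running f, sedentary e and sedentary f.

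**Figure D1:**
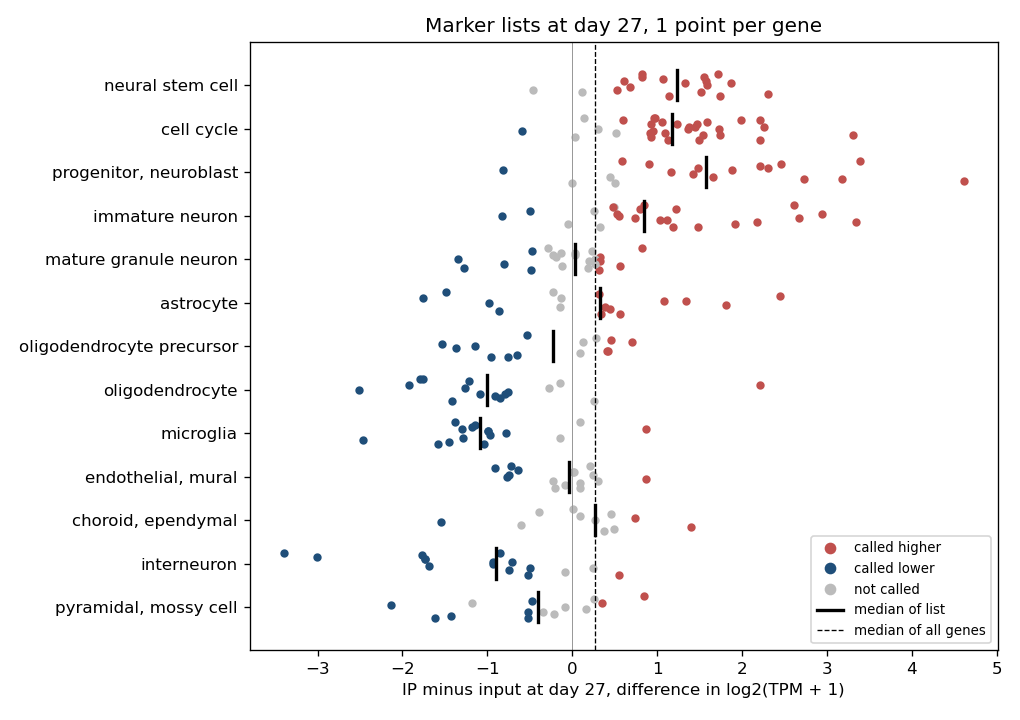
Difference between IP and input at day 27 for the genes of 13 cell type and stage lists, on the log2(TPM + 1) scale (horizontal axis, 1 point per gene). Black bars are list medians and the dashed line is the median of all genes, 0.26. The stem cell, cell cycle, progenitor and immature neuron lists lie to its right, and the interneuron, microglia and oligodendrocyte lists to its left, apart from single genes.

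Genes of neural stem cells were higher in IP. Of 18 tested, 16 were higher, none was lower and 2 (Hes1 and Id4) were not called, with a list median of 1.24. Under median-of-ratios scaling 14 were higher and 1 was lower. In bulk samples such as these, fewer cells of a type and less RNA per cell cannot be told apart. Notch1 (mm10 chromosome 2, 26457903 to 26516663, minus strand, protein-coding), a receptor that maintains the stem cell state, stood at 44.9, 54.0, 61.3 and 52.6 TPM in the IP libraries and 9.46, 8.76, 11.7 and 9.78 TPM in the input libraries. All 4 IP values lay above all 4 input values, and the means differed 5.36-fold (log2 difference 2.31 ± 0.11, adjusted p = 1.55e-06). Nes, the gene whose promoter drives the Cre, stood at 37.9, 44.6, 56.3 and 62.1 TPM in the IP libraries and 16.6, 17.3, 11.9 and 18.0 TPM in the input libraries, again with no overlap of the arms. Its log2 difference was 1.59 ± 0.13, adjusted p = 2.53e-05. Hes5, a Notch target, averaged 21.2 ± 3.56 TPM in IP and 5.86 ± 1.68 TPM in input (SD, n = 4 each, log2 difference 1.71 ± 0.15, adjusted p = 2.8e-05). The transcription factor Sox1, the filament Vim and the homeodomain protein Hopx rose by 1.58, 1.52 and 1.33 on the log2 scale, with adjusted p of 1.38e-05, 1.51e-05 and 1.72e-05. For Vim, both sedentary IP libraries (158 and 149 TPM) lay above both running ones (99.95 and 93.1 TPM), and its interaction with running was -0.54 ± 0.23 (adjusted p = 0.272).

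Signalling genes of the Notch, Wnt, BMP and Hedgehog pathways, which regulate the niche, were mostly on the same side, with 29 of 43 higher, 3 lower and a median of 0.66. After median-of-ratios scaling 20 were higher and 9 lower. Notch2 averaged 92.4 ± 15.1 TPM in IP and 15.9 ± 0.634 TPM in input (SD, n = 4 each, log2 difference 2.45 ± 0.09, adjusted p = 5.21e-07). The Wnt receptor Fzd1, the co-receptor Lrp5 and the secreted Wnt inhibitor Sfrp1 rose by 1.63, 1.46 and 2.37, with adjusted p of 1.62e-05, 4.06e-05 and 3.53e-05. Of the neurogenic transcription factor list as a whole, 22 of 33 were higher and 4 lower (13 and 8 after median-of-ratios scaling, and 2 lower without the IP library sedentary f). Among the extracellular matrix genes 16 of 24 were higher and 5 lower. Col4a1, a basement membrane collagen, rose 3.23-fold from 9.46 ± 1.15 to 30.5 ± 4.07 TPM (log2 difference 1.59 ± 0.13, adjusted p = 2.71e-05), and Hapln1, a link protein of perineuronal nets, was 3.61-fold lower (log2 difference -1.73 ± 0.11, adjusted p = 7.72e-06).

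Genes of dividing cells were still higher in IP at day 27. In the cell cycle list 25 of 30 were higher and 1, Ccne1, was lower, with a median of 1.18. The summed TPM of the list overlapped between the arms, at 1198 to 1676 in IP and 745 to 1224 in input. Its mean log2(TPM + 1) did not, at 4.02 to 4.13 in IP and 2.65 to 2.98 in input. Ccne1 was named after its values were seen. Top2a (mm10 chromosome 11, 98992943 to 99024189, minus strand, protein-coding), a topoisomerase of dividing cells, stood at 32.0, 33.4, 35.0 and 27.2 TPM in the IP libraries and 3.04, 2.41, 2.03 and 1.92 TPM in the input libraries. The IP and input values did not overlap, and the means differed 13.6-fold (log2 difference 3.30 ± 0.14, adjusted p = 8.41e-07). Rrm2, a ribonucleotide reductase subunit, stood at 13.6, 14.7, 12.4 and 13.7 TPM in the IP libraries and 2.75, 2.44, 1.48 and 1.71 TPM in the input libraries (log2 difference 2.25 ± 0.15, adjusted p = 8.27e-06). The helicase subunits Mcm2 and Mcm7, the cyclin Ccna2 and the spindle protein Tpx2 rose by 1.99, 1.49, 1.74 and 2.22, with adjusted p from 1.3e-05 to 3.64e-05. Pcna, Ccnd1, Cdk2 and Tyms were not called, with differences of 0.14, 0.03, 0.52 and 0.30. Histone genes, most of which are made in the DNA synthesis phase and lack a poly(A) tail, were higher in 46 of 66 cases and lower in 2, with a median of 1.73. Hist1h1b, a linker histone, averaged 50.4 ± 9.63 TPM in IP and 6.62 ± 0.911 TPM in input (log2 difference 2.75 ± 0.14, adjusted p = 2.4e-06). Histone genes are near-identical copies of each other, so how reads were shared among them is uncertain for each single gene.

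Intermediate progenitor and neuroblast genes had the highest median of the 13 cell type and stage lists. Of 18 tested, 14 were higher and 1, the RNA-binding protein gene Elavl2, was lower, and the median was 1.57. Eomes (Tbr2; mm10 chromosome 9, 118478212 to 118486132, plus strand, protein-coding), the T-box factor of intermediate progenitors, stood at 25.1, 26.8, 24.7 and 20.1 TPM in the IP libraries and 2.72, 2.0, 1.38 and 1.20 TPM in the input libraries. Every IP value was above every input value by a wide margin, and the means differed 13.2-fold (log2 difference 3.18 ± 0.15, adjusted p = 1.36e-06). Igfbpl1, a secreted binding protein of newborn neurons, stood at 114, 75.2, 89.2 and 70 TPM in the IP libraries and 3.80, 2.54, 2.71 and 1.5 TPM in the input libraries, the largest ratio in the list at 33.0-fold (log2 difference 4.61 ± 0.19, adjusted p = 7.23e-07). Draxin, a guidance molecule, averaged 35.3 ± 5.82 TPM against 2.48 ± 0.684 TPM (log2 difference 3.39 ± 0.16, adjusted p = 1.27e-06). The SoxC factors Sox4 and Sox11, which drive neuronal differentiation genes, rose by 2.72 ± 0.12 and 1.89 ± 0.09, with adjusted p of 1.03e-06 and 1.8e-06. Insm1, a zinc finger factor of progenitors, rose by 2.21 ± 0.19 (adjusted p = 2.71e-05). Neurod4, Nhlh1 and Btg2 were not called, at 0.50, 0.45 and -0.01.

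Immature neuron genes were higher in 17 of 23 cases and lower in 2, with a median of 0.84. The IP material is labelled as immature neurons, and their markers were higher in it, as were those of the earlier stages above. Dcx (mm10 chromosome X, 143855842 to 143933311, minus strand, protein-coding), the microtubule-binding protein doublecortin, stood at 112, 94.1, 77.0 and 81.4 TPM in the IP libraries and 15.8, 12.6, 13.3 and 14.0 TPM in the input libraries. The arms did not overlap and the means differed 6.54-fold (log2 difference 2.61 ± 0.10, adjusted p = 6.12e-07). Dpysl3, a collapsin response mediator of growth cones, stood at 291, 218, 172 and 181 TPM in the IP libraries and 29.5, 29.7, 22.4 and 25.5 TPM in the input libraries (log2 difference 2.94 ± 0.11, adjusted p = 3.95e-07), and its relative Dpysl5 rose 11.1-fold (log2 difference 3.34 ± 0.10, adjusted p = 3.1e-07). Tubb2b, a tubulin of migrating neurons, averaged 852 ± 215 TPM against 131 ± 18.0 TPM (log2 difference 2.67 ± 0.14, adjusted p = 2.47e-06). St8sia2, which adds polysialic acid to NCAM, rose by 2.17 ± 0.15 (adjusted p = 1.19e-05). The 2 lower genes were Gap43, named after its values were seen, and Calb2. Calb2, the calretinin gene used as a marker of young granule neurons and also made by mossy cells and interneurons, stood at 247, 131, 129.6 and 119 TPM in the IP libraries and 199, 222, 194 and 232 TPM in the input libraries. One IP library, running e, was above all input libraries and the other 3 IP libraries were below them. Its log2 difference was -0.49 ± 0.18 (adjusted p = 0.0368), and leaving out 1 library at a time lost the call in 6 of 8 cases, up to an adjusted p of 0.104 without the input library sedentary f. It was also not called in the fit of all 24 libraries (adjusted p = 0.0551).

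The granule lineage factors Prox1 and Neurod1 were higher in IP. Prox1, which specifies granule neurons and persists in mature ones, stood at 558, 535, 411 and 401 TPM in the IP libraries and 275, 259.6, 265 and 248.5 TPM in the input libraries, with both running IP libraries above both sedentary ones and all 4 above the input (log2 difference 0.84 ± 0.09, adjusted p = 8.02e-05). Neurod1, a factor of the neuroblast and immature stages, stood at 257, 175, 180.2 and 168 TPM in the IP libraries and 86.2, 80.5, 78.3 and 90.5 TPM in the input libraries (log2 difference 1.19 ± 0.12, adjusted p = 7.45e-05). The running e library was again the highest of the IP libraries, as it was for Calb2. Growth cone and microtubule genes had 19 of 34 higher and 6 lower (16 and 14 after median-of-ratios scaling, and 10 lower without the IP library running e), and axon guidance genes 31 of 41 higher and 2 lower. Drebrin (Dbn1), an actin-binding protein of young spines and growth cones, averaged 1137 ± 53.1 TPM in IP and 241 ± 27.7 TPM in input (log2 difference 2.24 ± 0.11, adjusted p = 1.72e-06). The semaphorin Sema3c stood at 279, 178, 127 and 131 TPM in the IP libraries and 31.1, 27.0, 19.2 and 21.4 TPM in the input libraries (log2 difference 2.76 ± 0.13, adjusted p = 1.6e-06), with both running IP libraries above both sedentary ones. The semaphorin receptors Plxna2 and Plxna3 rose by 1.73 ± 0.08 and 2.18 ± 0.13, with adjusted p of 1.27e-06 and 4.5e-06.

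**Figure D2:**
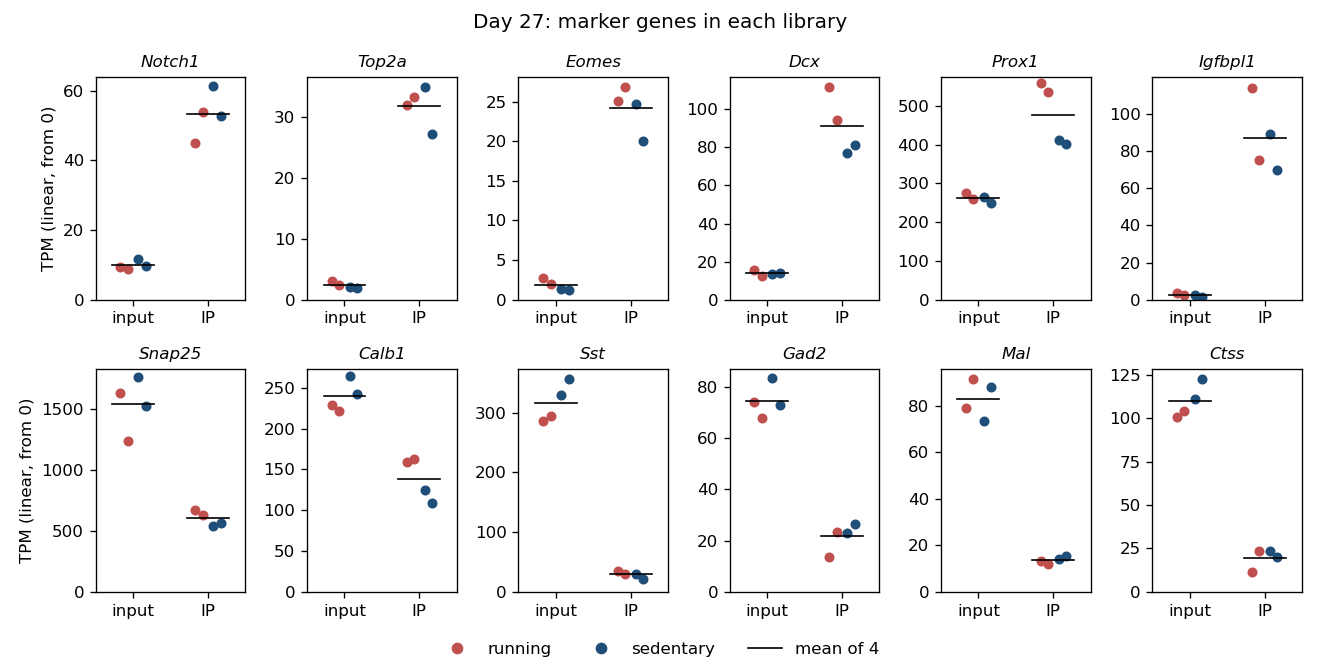
TPM (vertical axis, linear from 0) of 12 marker genes in each of the 8 day 27 libraries. Points are libraries, red for running and blue for sedentary mice, and bars are means of 4. Notch1, Top2a, Eomes, Dcx, Prox1 and Igfbpl1 (top row) were higher in every IP library than in any input library, and Snap25, Calb1, Sst, Gad2, Mal and Ctss (bottom row) were lower.

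Mature granule neuron genes were in part higher and in part lower in IP, with a median below that of all genes. The summed TPM of the list was 4814 to 6519 in IP and 6801 to 7959.5 in input, so in this sum every IP library was below every input library. Abundant genes weigh most in such a sum. The mean log2(TPM + 1) of the list overlapped between the arms, at 7.09 to 7.39 in IP and 7.22 to 7.42 in input. Of 22 tested, 5 were higher and 5 lower with a median of 0.03, and after median-of-ratios scaling 1 was higher, 10 were lower and the median was -0.29. Without the IP library running e, 8 of them were higher, and without sedentary f, 3 were. Calb1 (mm10 chromosome 4, 15881264 to 15908064, plus strand, protein-coding), the calbindin of mature granule neurons, stood at 159, 163, 125 and 108 TPM in the IP libraries and 229, 221, 265 and 243 TPM in the input libraries. All IP values were below all input values, and within IP the running libraries were above the sedentary ones (log2 difference -0.80 ± 0.09, adjusted p = 0.0001). Snap25, a membrane fusion protein of all mature neurons, stood at 673, 633, 540.2 and 565 TPM in the IP libraries and 1627, 1241, 1763 and 1522 TPM in the input libraries (log2 difference -1.34 ± 0.12, adjusted p = 4.06e-05), and Syt1, the calcium sensor of release, fell by 1.27 on the log2 scale (adjusted p = 1.33e-05). Slc17a7, the vesicular glutamate transporter, was lower by less (log2 difference -0.47 ± 0.11, adjusted p = 0.00493). Plk5, a kinase of the dentate granule layer, was higher at 28.3 ± 1.88 against 15.8 ± 3.66 TPM (log2 difference 0.82 ± 0.11, adjusted p = 0.000226), as was Dock10 (log2 difference 0.56 ± 0.10, adjusted p = 0.00127). Rbfox3, the gene of the NeuN antigen, stood at 248, 218, 212 and 189.5 TPM in the IP libraries and 235, 218, 252 and 239 TPM in the input libraries, with overlapping arms and no call (log2 difference -0.13 ± 0.09, adjusted p = 0.272), and it was called lower after median-of-ratios scaling at -0.45 (adjusted p = 0.00483).

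Synaptic and channel genes split within each list. Their counts stand beside 39.7% higher and 16.5% lower over all genes tested. Presynaptic genes were higher in 8 and lower in 12 of 29 cases (6 and 16 after median-of-ratios scaling). The vesicle proteins Syt4 and Sv2b were 2.68-fold and 2.62-fold lower (adjusted p = 7.64e-06 and 4.54e-05), whereas the priming factors Unc13a and Unc13b were higher. Unc13a stood at 505, 573, 384 and 791 TPM in the IP libraries and 115, 111, 111 and 115 TPM in the input libraries (log2 difference 2.26 ± 0.19, adjusted p = 2.71e-05). Glutamate receptor and postsynaptic genes had 15 of 33 higher and 4 lower, and 5 and 12 after median-of-ratios scaling. The lower count was 7 without the IP library running f. Grin2d, an NMDA receptor subunit, averaged 12.5 ± 1.62 TPM in IP and 3.88 ± 0.4 TPM in input (log2 difference 1.46 ± 0.15, adjusted p = 5.99e-05), and the scaffold Shank2 rose by 1.42 ± 0.14 (adjusted p = 5.44e-05). Subunits of GABA type A receptors and chloride transporters were lower in 9 of 16 cases. Gabrb2, a beta subunit, stood at 78.5, 79.2, 61.8 and 67.5 TPM in the IP libraries and 165, 146, 170.4 and 156 TPM in the input libraries (log2 difference -1.14 ± 0.09, adjusted p = 1.48e-05), while Gabra2, an alpha subunit, stood at 196, 319, 256 and 253 TPM in the IP libraries and 118, 109.6, 129.7 and 120.3 TPM in the input libraries (log2 difference 1.08 ± 0.14, adjusted p = 0.000232). The former was below and the latter above the tissue with no overlap of arms. The higher members numbered 4, and 1 without the input library running f or after median-of-ratios scaling. Ion channel genes were higher in 13 and lower in 11 of 37 cases (5 and 18 after median-of-ratios scaling), with the T-type calcium channel genes Cacna1g and Cacna1h at 0.95 and 0.94 and the potassium channel Kcnq5 and the sodium channel beta subunit Scn2b at -1.07 and -0.87, all past the threshold. Clustered protocadherins, adhesion proteins that give neurons their individual surface, were higher in 38 of 57 cases with none lower, led by Pcdhgc4 at 1.74 ± 0.11 (adjusted p = 7.01e-06), and in 15 with 2 lower after median-of-ratios scaling. Their first exons share downstream exons, so how reads were split among them is uncertain.

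Markers of neurons outside the granule lineage were mostly lower in IP. Of 16 interneuron genes 13 were lower and 1 was higher, with a median of -0.89. The summed TPM of the list was 484 to 518 in IP and 1162 to 1377 in input libraries, and no member was at 0 in all libraries of an arm. Sst (mm10 chromosome 16, 23889573 to 23890958, minus strand, protein-coding), the somatostatin gene of hilar interneurons, stood at 35.5, 29.4, 30.0 and 22.2 TPM in the IP libraries and 285, 294, 329 and 355 TPM in the input libraries, a 10.8-fold difference of means with no overlap (log2 difference -3.40 ± 0.11, adjusted p = 3.12e-07). Npy, the neuropeptide Y gene, stood at 16.5, 17.6, 11.1 and 13.7 TPM in the IP libraries and 143, 122, 112 and 119.7 TPM in the input libraries (log2 difference -3.01 ± 0.10, adjusted p = 3.12e-07). The GABA synthesis enzyme Gad2, the vesicular GABA transporter Slc32a1 and parvalbumin (Pvalb) were 3.45-fold, 3.79-fold and 3.62-fold lower, with adjusted p of 2.8e-05, 2.11e-05 and 2.98e-05. Neuropeptide genes as a list were lower in 10 of 15 cases and higher in 2, Tac2 and Nmb, with a median of -1.34. Penk, the enkephalin precursor, averaged 21.1 ± 7.17 TPM in IP and 90.5 ± 27.0 TPM in input (log2 difference -2.06 ± 0.15, adjusted p = 1.17e-05). Pyramidal and mossy cell genes were lower in 6 and higher in 2 of 14 cases, at a summed 667 to 909 TPM in IP and 1392 to 1489 TPM in input. Neurod6, a factor of pyramidal neurons, stood at 44.9, 38.6, 40.1 and 42.0 TPM in the IP libraries and 123, 103, 101 and 128 TPM in the input libraries (log2 difference -1.43 ± 0.11, adjusted p = 1.52e-05).

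Glial genes differed by cell type. Astrocyte genes were higher in 9 and lower in 4 of 16 cases with a median of 0.33, and higher in 4 and lower in 7 after median-of-ratios scaling. Mfge8, a phagocytosis factor, stood at 201, 218, 396 and 296 TPM in the IP libraries and 66.8, 70.6, 81.3 and 84.0 TPM in the input libraries (log2 difference 1.82 ± 0.11, adjusted p = 4.46e-06), and the GABA transporter Slc6a11 rose by 1.08 ± 0.10 (adjusted p = 3.98e-05). The water channel Aqp4 stood at 43.0, 54.2, 61.8 and 66.5 TPM in the IP libraries and 140.0, 161, 156 and 179 TPM in the input libraries (log2 difference -1.49 ± 0.10, adjusted p = 1.1e-05), and the gap junction protein Gja1 was 1.95-fold lower (log2 difference -0.98 ± 0.10, adjusted p = 5.94e-05). Gfap, a filament of astrocytes and radial stem cells, stood at 289, 293, 419.8 and 370.4 TPM in the IP libraries and 261, 266, 263 and 299.7 TPM in the input libraries. Its arms overlapped, its difference was 0.32 ± 0.09 (adjusted p = 0.0179), and it was -0.0059 and not called after median-of-ratios scaling. The summed TPM of the astrocyte list was 3293 to 4736 in IP and 3087 to 3519 in input, so the arms overlapped in total while single genes moved in opposite directions.

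Oligodendrocyte genes were lower in 12 of 16 cases with a median of -1.0, and 1 was higher. Mal (mm10 chromosome 2, 127633226 to 127656695, minus strand, protein-coding), a proteolipid of myelin, stood at 13.2, 12.0, 14.2 and 15.7 TPM in the IP libraries and 79.1, 91.7, 73.3 and 88.0 TPM in the input libraries, a 6.04-fold difference without overlap (log2 difference -2.51 ± 0.10, adjusted p = 6.65e-07). Cldn11, Tspan2 and Ermn, further myelin proteins, were 4.49-fold, 3.70-fold and 3.67-fold lower (adjusted p = 3.79e-05, 3.97e-05 and 5.25e-06), and Mbp, the myelin basic protein gene, stood at 101, 123, 123 and 128 TPM in the IP libraries and 225, 170.2, 262 and 209 TPM in the input libraries (log2 difference -0.85 ± 0.12, adjusted p = 0.000401). Gjb1 had a mean under 1 TPM in IP, and no member of the list was at 0 throughout an arm.

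Oligodendrocyte precursor genes were lower in 7 and higher in 4 of 14 cases (1 higher and 7 lower after median-of-ratios scaling, and 1 higher without the IP library running f), at a summed 248 to 293 TPM in IP and 252 to 275 TPM in input. Pdgfra, their growth factor receptor, stood at 7.13, 11.6, 7.93 and 8.83 TPM in the IP libraries and 22.6, 24.4, 24.9 and 24.6 TPM in the input libraries (log2 difference -1.37 ± 0.15, adjusted p = 8.89e-05), and Tnr, a matrix protein also made by interneurons, was higher (log2 difference 0.71 ± 0.10, adjusted p = 0.000352). Microglial genes were lower in 13 of 16 cases and higher in 1, Siglech, with a median of -1.09 and a summed 148 to 216 TPM in IP against 435 to 514 TPM in input. The lysosomal protease gene Ctss (mm10 chromosome 3, 95526786 to 95556403, plus strand, protein-coding) stood at 11.6, 23.8, 23.3 and 20.2 TPM in the IP libraries and 101, 104, 111 and 122 TPM in the input libraries (log2 difference -2.46 ± 0.18, adjusted p = 1.38e-05). P2ry12, a purinergic receptor of resting microglia, was 3.05-fold lower (log2 difference -1.58 ± 0.17, adjusted p = 9.73e-05), and the complement genes C1qa and C1qc were 2.65-fold and 2.75-fold lower (adjusted p = 4.97e-05 and 9.38e-05). Endothelial and mural genes were mostly not called, with 5 lower and 1 higher of 16, at a summed 116 to 192 TPM in IP and 159 to 179 TPM in input. Cldn5, a tight junction protein of vessels, was lower (log2 difference -0.72 ± 0.16, adjusted p = 0.00403), and Pdgfrb, a pericyte receptor, was higher (log2 difference 0.87 ± 0.14, adjusted p = 0.000689). Choroid plexus and ependymal genes were higher in 2 and lower in 1 of 11 cases, at a summed 46.1 to 60.6 TPM in IP and 38.2 to 58.8 TPM in input, where Ccdc153, Tmem212, Otx2 and Aqp1 had means under 1 TPM.

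Genes for the machinery of translation and respiration were mostly lower in IP or not called. Ribosomal protein genes were lower in 42 and higher in 5 of 86 cases with a median of -0.40 (62 and 1 after median-of-ratios scaling). The lower count was 31 without the IP library sedentary f and 59 without the IP library running e. Rpl22, whose protein carries the tag in recombined cells, stood at 137, 103, 123 and 118 TPM in the IP libraries and 159, 199.9, 159 and 182 TPM in the input libraries (log2 difference -0.54 ± 0.12, adjusted p = 0.00403), which counts tagged and untagged alleles together. Its paralog Rpl22l1 averaged 49.4 ± 11.8 TPM in IP and 94.2 ± 10.2 TPM in input (log2 difference -0.94 ± 0.09, adjusted p = 5.63e-05). Many ribosomal protein genes have near-identical processed copies, so their single values are uncertain. Nuclear genes of oxidative phosphorylation were lower in 45 and higher in 3 of 82 cases (68 and 0 after median-of-ratios scaling). The complex I subunit Ndufv2 stood at 95.8, 73.8, 80.1 and 83.5 TPM in the IP libraries and 241, 228, 228 and 247 TPM in the input libraries (log2 difference -1.5 ± 0.10, adjusted p = 9.51e-06), and Ndufb4 and Ndufc1 were 3.25-fold and 4.37-fold lower (adjusted p = 2.43e-05 and 0.000144). Translation factor genes were lower in 13 and higher in 6 of 29 cases, and lower in 19 and higher in 2 after median-of-ratios scaling, with Pabpc1, the poly(A)-binding protein, at -0.70 and Eif5b, a subunit-joining factor, at 0.75. Cholesterol synthesis genes were higher in 12 and lower in 2 of 19 cases (5 and 4 after median-of-ratios scaling), with Sqle, the squalene epoxidase, at 43.3 ± 5.46 against 24 ± 1.33 TPM (log2 difference 0.82 ± 0.09, adjusted p = 7.8e-05). Of the chromatin and DNA methylation genes 25 of 38 were higher and 3 lower (17 and 9 after median-of-ratios scaling), led by Uhrf1, the partner of the maintenance methyltransferase, at 14.7 ± 3.30 against 2.26 ± 0.543 TPM (log2 difference 2.26 ± 0.20, adjusted p = 3.21e-05). Apoptosis genes were higher in 12 and lower in 3 of 21 cases (6 and 5 after median-of-ratios scaling), with Trp53 at 1.41, Birc5 at 1.10 and Cycs at -1.26, all past the threshold.

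Other lists had medians below that of all genes, from -0.13 to 0.21. Their counts stand beside 39.7% higher and 16.5% lower over all genes tested. Synaptic organiser genes were higher in 9 and lower in 8 of 29 cases, activity-regulated and growth factor genes in 11 and 9 of 26, splicing and RNA-binding genes in 8 and 9 of 28, glycolysis genes in 2 and 6 of 20, and small noncoding RNAs in 1 and 1 of 4. After median-of-ratios scaling the counts were 3 and 14, 4 and 9, 4 and 15, 1 and 11, and 0 and 1 in the same order. Without the IP library sedentary f, 1 glycolysis gene and 4 synaptic organiser genes were lower, and without sedentary e, 7 activity-regulated and growth factor genes were higher. The largest differences among the named genes lay outside the lists of cell types. Etl4 (mm10 chromosome 2, 19909780 to 20810713, plus strand, protein-coding), the Enhancer trap locus 4 gene, stood at 2766, 3835, 3183 and 3739 TPM in the IP libraries and 26.4, 22.6, 21.8 and 25.8 TPM in the input libraries, a 140.0-fold difference (log2 difference 7.06 ± 0.13, adjusted p = 7.48e-09). Hcfc1, a transcriptional coregulator, stood at 1937, 4174, 2685 and 4200.2 TPM in the IP libraries and 38.9, 36.3, 43.6 and 40.2 TPM in the input libraries (log2 difference 6.25 ± 0.23, adjusted p = 3.95e-07), and Sptb, the erythrocyte beta spectrin gene, at 4281, 6335, 4262 and 8032 TPM in the IP libraries and 89.2, 95.2, 94.2 and 94.9 TPM in the input libraries (log2 difference 5.87 ± 0.20, adjusted p = 3.19e-07). For each of the 3 the input libraries lay within a narrow range and the IP libraries lay far above them at every day: Hcfc1 averaged 3496 ± 653 TPM in IP at day 11 and 3226 ± 765 TPM at day 18. The priming factor Unc13b, the cadherin Fat4, the ubiquitin ligase Birc6 and the cytolinker Plec, which encode large proteins, followed at 4.70, 4.08, 3.73 and 3.35, each past the threshold. The pseudogene Apoo-ps was at 22.8, 37.8, 25.2 and 42.9 TPM in the IP libraries and listed at 0 in all 4 input libraries. In the other direction, Slxl1 was listed at 0 in all 4 IP libraries and stood at 12.7, 11.4, 6.45 and 1.62 TPM in the input libraries. Aldh1a1, a retinaldehyde dehydrogenase, the lipocalin Apod and Vsnl1, a neuronal calcium sensor, were 5.82-fold, 6.28-fold and 5.21-fold lower (adjusted p = 3.1e-07, 3.96e-06 and 5.67e-07).

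Transcript length moved with the difference. Genes were ranked by their longest GENCODE M21 transcript, which 93.1% of the genes tested had. In the shortest of 10 equal groups, 94 to 1156 bases, the median difference was 0.02, with 21.6% of genes higher and 22.5% lower. In the longest group, from 6533 bases, the median was 0.36, with 53.6% higher and 14.0% lower. The histone list, with a median length of 556 bases, had a median difference that was 1.67 from that of its genes' own length groups. The same value was 1.31 for the progenitor list, -1.18 for the interneuron list and -0.46 for the ribosomal protein list, whose median length was 1094 bases. Genes are not independent replicates, so these are descriptions, and the part of length in each gene's difference was not tested.

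Among noncoding RNAs, the nuclear long RNAs Malat1 and Xist were high in IP. Malat1 stood at 29339.7, 40413, 35844 and 38952 TPM in the IP libraries and 11751, 12582, 10699 and 12374 TPM in the input libraries (log2 difference 1.60 ± 0.17, adjusted p = 8.36e-05), and Xist, the X-inactivation RNA, at 343, 566, 459 and 680.1 TPM in the IP libraries and 92.1, 75.5, 109 and 93.1 TPM in the input libraries (log2 difference 2.42 ± 0.18, adjusted p = 1.45e-05). Both arms of both genes were fully apart. Of 12 nuclear RNAs 6 were higher and 1 lower, beside 39.7% and 16.5% of all genes. After median-of-ratios scaling 6 were higher and 4 lower, with a list median of 0.07. The mean log2(TPM + 1) of the list was 0.54 higher in IP (exact permutation test over 4 against 4 libraries, two-sided, p = 0.0286, which is the smallest p that 70 relabellings allow, adjusted p = 0.0286 over 2 lists), and 0.22 higher after median-of-ratios scaling (exact permutation p = 0.0857). Small nucleolar RNAs were lower in 10 and higher in 1 of 28 cases with a median of -0.91. Snora81 stood at 17.9, 25.7, 31.5 and 22.3 TPM in the IP libraries and 484, 282, 477 and 411 TPM in the input libraries (log2 difference -4.03 ± 0.19, adjusted p = 1.27e-06). Small nucleolar RNAs commonly lie in introns of host genes, and as the sources used here do not give the counting rules, their reads cannot be fully told from those of the hosts.

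Olfactory receptor genes were lower in IP. Their mean over 1102 genes was 1.17, 1.33, 1.93 and 2.05 TPM in the IP libraries and 3.06, 3.66, 1.98 and 1.74 TPM in the input libraries. The 2 running IP libraries were the lowest, the 2 running input libraries were the highest, and the sedentary libraries of both arms lay between them with overlap. Of 687 tested 341 were lower and 11 higher, and the lower count fell to 216 without the input library running f. The mean log2(TPM + 1) of the list differed by -0.69 (IP minus input), and the exact two-sided permutation p was 0.0286, the smallest possible. A list of genes at this level moved between the arms, and its part in the calls of other low genes was not tested.

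**Figure D3:**
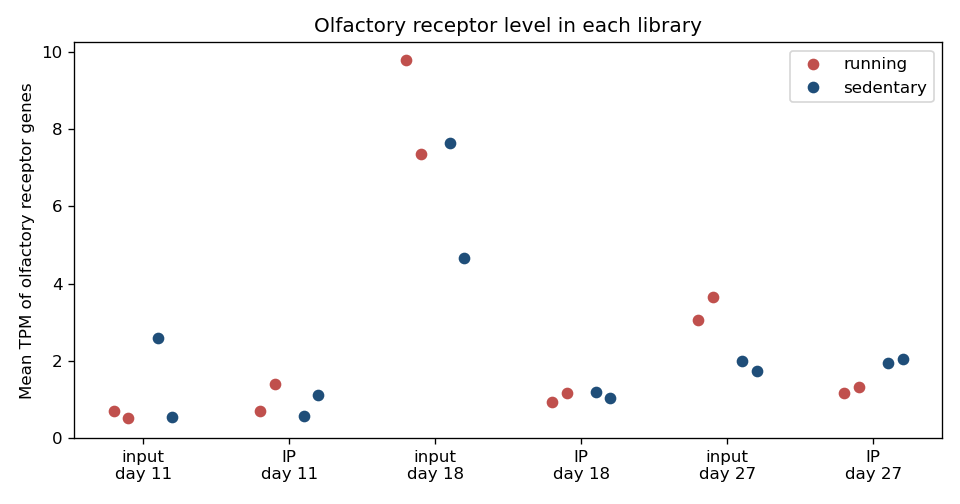
Mean TPM of 1102 olfactory receptor genes (vertical axis) in each of the 24 libraries, by fraction and day (horizontal axis). Points are libraries, red for running and blue for sedentary mice. Day 18 input libraries lie highest, and at day 27 running input libraries lie above sedentary ones.

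The IP minus input difference of day 27 was next set against that of day 11, when the marked cells had had less time since tamoxifen. Of 19507 genes tested over all 24 libraries, 285 had a larger IP minus input difference at day 27, which is 1.46%, and 63 a smaller one, which is 0.323%. Of the 285, 281 moved more in IP than in input between the days, with a median change of 0.72 in IP and -0.09 in input. Of the 63, 53 moved more in IP, with medians of -0.81 in IP and 0.24 in input, and 34 were still higher than input at day 27. Among all 19507 genes, 11194 moved more in IP, with median changes of 0.16 in IP and 0.10 in input. The 285 and the 63 were picked by the change of IP minus input. How that change splits between IP and input therefore follows in part from how they were picked. Leaving out 1 library at a time moved the counts of 285 and 63 by over 1.5 times in 14 and 13 of 24 cases. It gave 88 (without the day 27 IP library sedentary e) to 861 (without the day 11 input library running b) genes in the first group and 14 (without day 27 input running f, or input sedentary f) to 229 (without day 11 input sedentary a) in the second. After median-of-ratios scaling they were 268 and 106.

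Part of the cell cycle genes came nearer to the tissue level. In that list 10 of 30 had a smaller difference at day 27 than at day 11 and none a larger one, and the list median was 2.14 at day 11, 1.27 at day 18 and 1.18 at day 27. The median over all genes was 0.20, 0.02 and 0.23. All 10 remained higher in IP than in input at day 27. The 10 were Ccnb1, Cenpf, Kif11, Tpx2, Nusap1, Cenpe, Mki67, Top2a, Ccna2 and Mcm7, all but Ccnb1 named after their values were seen. Cenpf, a kinetochore protein, went from 37.9 ± 5.57 TPM in IP and 4.71 ± 0.971 TPM in input at day 11 to 16.7 ± 0.595 and 5.95 ± 1.45 TPM at day 27 (SD, n = 4 each), and its difference fell by 1.40 ± 0.23 on the log2 scale (adjusted p = 0.00467). Top2a went in IP from 79.8 ± 12.9 to 31.9 ± 3.33 TPM while input was at 3.31 ± 0.468 and 2.35 ± 0.506 TPM (log2 difference -0.92 ± 0.22, adjusted p = 0.0396). For the spindle proteins Tpx2 and Kif11 the IP means went from 47.6 to 18.0 and from 22.4 to 9.76 TPM (adjusted p = 0.0328 and 0.0249). Ccnb1, the mitotic cyclin, had the largest change of the list (log2 difference -1.95 ± 0.40, adjusted p = 0.0153), and its input means were 2.15 ± 1.97 TPM at day 11 and 4.58 ± 1.78 TPM at day 27. The list count was 1 without the day 11 IP library sedentary a and 12 without the day 11 input library running b. It was 1 with the replicate letter as a block and 3 on the 16 libraries of the 2 days. It was 5 without limma's trend and robust options, 6 with a pseudocount of 0.1 or no filter, and 12 after median-of-ratios scaling.

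The 150 bases upstream of the RefSeq start sites of these 10 genes (build GRCm38.p6) were searched for 2 short motifs. The 10 share a direction because they were picked by it. Both motifs are known from promoters of mitotic genes. They are the cell cycle genes homology region as TTTGAA and the CCAAT box as CCAAT, which can share 1 base. Both strands were searched and every match was counted. Start sites for 8 of the 10 genes were matched by symbol. CCAAT was found in 7 of the 8 windows and TTTGAA in 3, the 3 with both. In the whole cell cycle list, 19 of 24 matched windows held CCAAT (79.2%) and 6 held TTTGAA (25%), against 24.5% and 9.07% of all 32851 start sites of the table. A match of letters is a description and not evidence of a bound site. Windows are shown for the genes whose values are given above, 5′ to 3′ on the gene's strand, with matches in capitals (those on the other strand read ATTGG and TTCAAA): Ccnb1 at chr13:100786487-100786636 (minus strand), Cenpf at chr1:189688087-189688236 (minus strand), Kif11 at chr19:37376232-37376381 (plus strand) and Top2a at chr11:99024190-99024339 (minus strand).
Ccnb1: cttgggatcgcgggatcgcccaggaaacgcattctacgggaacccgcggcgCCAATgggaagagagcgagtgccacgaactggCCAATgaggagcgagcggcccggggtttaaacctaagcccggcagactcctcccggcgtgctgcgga
Cenpf: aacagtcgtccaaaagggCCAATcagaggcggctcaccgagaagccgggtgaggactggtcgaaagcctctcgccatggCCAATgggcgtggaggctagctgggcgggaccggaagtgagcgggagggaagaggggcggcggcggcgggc
Kif11: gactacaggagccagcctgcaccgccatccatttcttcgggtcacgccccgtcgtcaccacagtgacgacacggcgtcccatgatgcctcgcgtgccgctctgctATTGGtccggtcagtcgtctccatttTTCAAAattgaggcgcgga
Top2a: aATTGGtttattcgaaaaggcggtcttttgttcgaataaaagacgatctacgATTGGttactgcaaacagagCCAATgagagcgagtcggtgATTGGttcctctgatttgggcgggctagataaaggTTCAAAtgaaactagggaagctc

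Histone genes went the same way in median, from 2.39 at day 11 to 1.73 at day 27, with 2 of 66 past the threshold. The progenitor list had medians of 2.31, 1.68 and 1.57 at days 11, 18 and 27. In it only Neurod4, a proneural factor of committed progenitors, passed the test, going from 9.66 ± 2.92 to 3.27 ± 0.995 TPM in IP (log2 difference -1.67 ± 0.35, adjusted p = 0.0166). Eomes went from 60.8 ± 17.4 to 24.2 ± 2.88 TPM in IP and was not called (adjusted p = 0.142). The stem cell and immature neuron lists had no call in either direction, with medians at day 11 of 1.34 and 0.97 and at day 27 of 1.24 and 0.84. Dcx stood at 137 ± 44.1 TPM in IP at day 11 and 91.1 ± 15.6 TPM at day 27 (log2 difference -0.51 ± 0.25, adjusted p = 0.34).

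**Figure D4:**
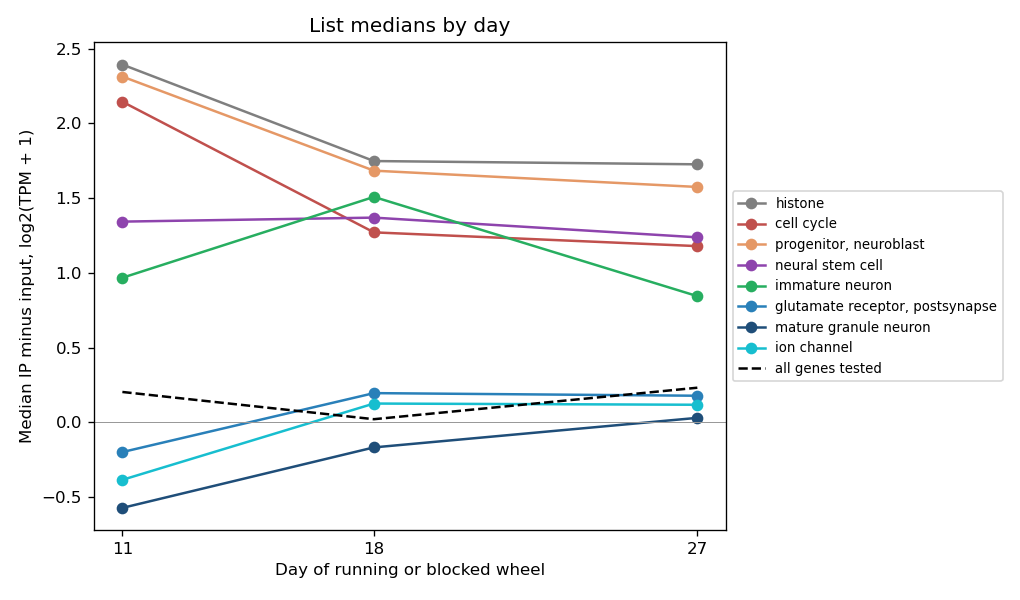
Median of IP minus input on the log2(TPM + 1) scale (vertical axis) for 8 gene lists at days 11, 18 and 27 (horizontal axis), with the median of all genes tested as a dashed line. The cell cycle list goes from 2.14 to 1.18, and the mature granule neuron list from -0.57 to 0.03.

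Genes of maturing neurons moved the other way. In the mature granule neuron list 7 of 22 had a larger difference at day 27 than at day 11 and none a smaller one. The list median went from -0.57 at day 11 through -0.17 at day 18 to 0.03. The median over all genes was 0.20, 0.02 and 0.23 on these days. From day 18 to day 27 the median change was 0.16 both in the list and over all genes. The 7 were Icam5, Camk2a, C1ql2, Slc17a7, Dsp, Grin2a and Il16, all but Icam5 named after their values were seen. Icam5, an adhesion protein of dendrites, went from 82.7 ± 11.8 to 181 ± 31.7 TPM in IP while input stood at 182 ± 23.2 and 175 ± 8.30 TPM (log2 difference 1.16 ± 0.17, adjusted p = 0.00292). Camk2a, the calcium-dependent kinase of excitatory synapses, went from 934 ± 58.6 to 1835 ± 407 TPM in IP against 2266 ± 235 and 2199.6 ± 65.5 TPM in input (log2 difference 0.99 ± 0.18, adjusted p = 0.00804). The difference of C1ql2, a secreted synapse organiser of granule cells, rose by 0.93 ± 0.19 (adjusted p = 0.0169). Calb1 was not called (log2 difference 0.42 ± 0.17, adjusted p = 0.222). The count of the list was 2 without the day 27 IP library sedentary e and 10 without the day 11 input library running b. It was 2 on the 16 libraries of the 2 days, 3 without limma's trend and robust options and 0 with the replicate letter as a block.

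Receptors and channels followed. Of the glutamate receptor and postsynaptic list 7 of 33 had a larger difference at day 27 (3 without the day 11 IP library running a, 12 without the day 11 input library running b). The count was 3 both on the 16 libraries of the 2 days and without limma's trend and robust options. It was 0 with the replicate letter as a block. The 7 were the NMDA receptor subunits Grin1, Grin2a and Grin2b, the metabotropic receptor Grm2, the kinases Camk2a and Camk2b and the scaffold Dlg4. Grin1 went from 178 ± 4.73 to 329.6 ± 58.5 TPM in IP and from 253 ± 35.5 to 229 ± 5.93 TPM in input (log2 difference 1.00 ± 0.14, adjusted p = 0.00292). Slc12a5, the potassium chloride exporter whose rise makes GABA inhibitory, went from 83.2 ± 8.88 to 145 ± 29.2 TPM in IP and from 179 ± 14.7 to 155 ± 8.63 TPM in input (log2 difference 0.99 ± 0.14, adjusted p = 0.00292). The difference of the delta subunit Gabrd rose by 0.79 ± 0.20 (adjusted p = 0.0499) and that of the gamma 1 subunit Gabrg1 fell by 0.86 ± 0.21 (adjusted p = 0.0427). Of the ion channel list 5 of 37 were called, 1 without the day 27 input library sedentary f and 14 without the day 11 input library running b. On the 16 libraries, and without limma's trend and robust options, 2 were called, with no filter 3, and with a minimum mean of 5 TPM 10. With the replicate letter as a block 0 were called. The 5 included Cacna1a, the P/Q-type calcium channel (log2 difference 0.70 ± 0.13, adjusted p = 0.0107). The differences of the activity-regulated genes Egr3, Egr1 and Arc rose by 1.25, 1.14 and 0.78 (adjusted p = 0.00927, 0.0443 and 0.0295). For Arc the IP means were 15.9 and 18.5 TPM and the input means 27.3 and 18.3 TPM.

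Outside the lists, the genes with the largest rise were Lars2, a mitochondrial leucyl-tRNA synthetase, and Slc8a2, a sodium calcium exchanger of neurons. Slc8a2 went from 112 ± 8.78 to 304 ± 92.0 TPM in IP with input at 244 ± 36.9 and 229.9 ± 13.0 TPM (log2 difference 1.46 ± 0.17, adjusted p = 0.000911). For Lars2 the IP means were 1819 ± 1135 and 2602 ± 423 TPM and the input means 2211 ± 908 and 874 ± 126 TPM (log2 difference 1.99 ± 0.31, adjusted p = 0.00402). Its IP mean was higher and its input mean lower at day 27. Ncdn, a neurite outgrowth regulator, went from 358 ± 47.7 to 984 ± 285 TPM in IP (log2 difference 1.45 ± 0.22, adjusted p = 0.00402). Among the falls, Ncapg, a condensin subunit, went from 9.41 ± 1.37 to 3.77 ± 0.535 TPM in IP (log2 difference -1.69 ± 0.27, adjusted p = 0.00463), and Shcbp1, a midbody protein, from 8.93 ± 1.01 to 3.12 ± 0.508 TPM (log2 difference -1.89 ± 0.30, adjusted p = 0.00463). Mad2l1, a spindle checkpoint protein, went from 12.6 ± 2.88 to 6.18 ± 2.22 TPM in IP and from 5.97 ± 0.767 to 9.86 ± 0.809 TPM in input (log2 difference -1.60 ± 0.30, adjusted p = 0.00942).

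**Figure D5:**
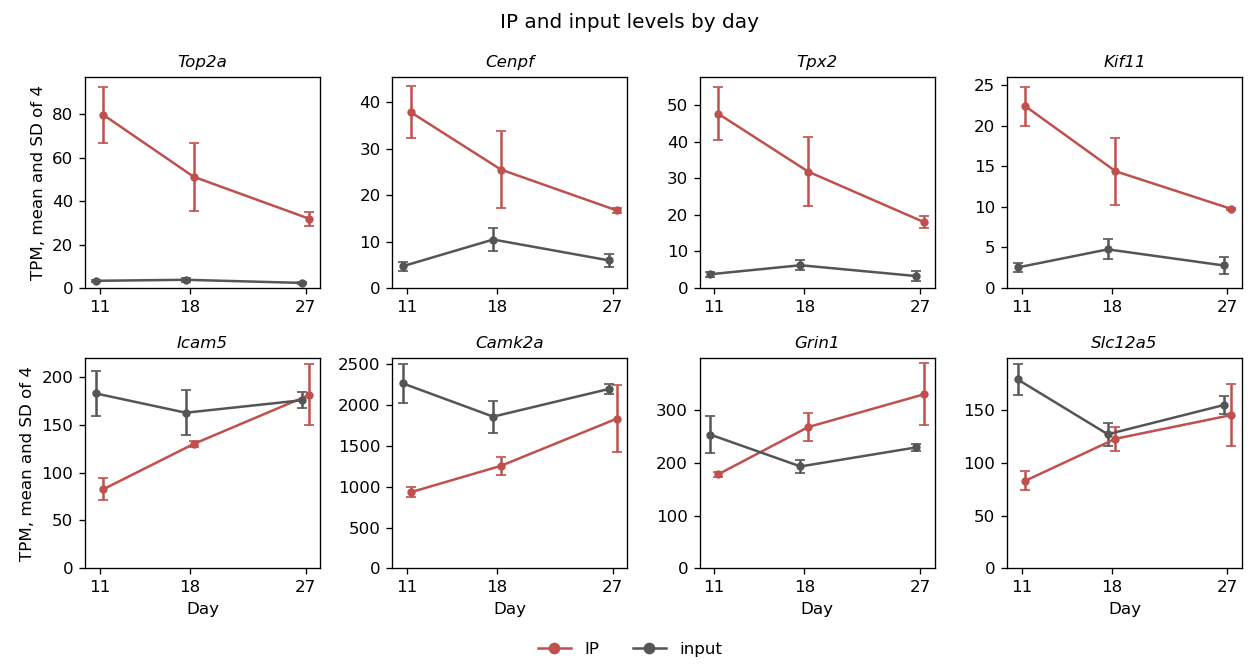
TPM of 8 genes (vertical axis, linear from 0) in IP (red) and input (grey) at days 11, 18 and 27 (horizontal axis), as means of 4 libraries with SD bars. In IP the means of Top2a, Cenpf, Tpx2 and Kif11 are lowest at day 27, and those of Icam5, Camk2a, Grin1 and Slc12a5 are highest there.

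Against day 18, 3708 of the same 19507 genes had a larger difference at day 27, which is 19.0%, and 1393 a smaller one, which is 7.14%. This comparison shares the day 27 libraries with the one against day 11, so the values of both are given side by side. Low genes dominated the larger ones: 79.7% of the 3708 had a mean below 5 TPM, against 34.4% of all genes tested. Of 886 olfactory receptor genes tested 501 were larger, against 19.0% of all genes. The mean olfactory receptor level was 4.67 to 9.78 TPM in the day 18 input libraries, 1.74 to 3.66 TPM in those of day 27 and 0.518 to 2.58 TPM in those of day 11, and 0.929 to 1.19 TPM in the day 18 IP libraries. The part of this level in the calls was not tested. With genes of at least 5 TPM, 573 were larger. Without the day 18 input library sedentary c the counts were 1788 and 525, and the smaller ones were 678 without the day 27 input library sedentary f, 814 without day 27 input running f, 843 without day 18 IP running c and 903 without day 27 IP sedentary f.

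Part of the genes of stem cells and young neurons were nearer to the tissue level at day 27 than at day 18. In the stem cell list 7 of 18 had a smaller difference and none a larger one, and in the immature neuron list 6 of 23 and none. Such changes were not particular to these lists. Smaller differences were called for 14 of 33 neurogenic transcription factor genes and 13 of 29 translation factor genes, with none larger. The same held for 4 of 16 astrocyte genes. Of the chromatin and DNA methylation genes 12 of 38 were smaller and 1 was larger. The genes of this paragraph were named after their values were seen. Stmn1, a tubulin-binding protein of young neurons, had means of 1224 and 763 TPM in IP and 333 and 510.3 TPM in input at days 18 and 27 (log2 difference -1.27 ± 0.27, adjusted p = 0.00587). Dpysl3 had means of 330.1 and 215 TPM in IP and 22.0 and 26.8 TPM in input at days 18 and 27 (log2 difference -0.81 ± 0.21, adjusted p = 0.0131), and the neuroblast factor Sox4 of 193 and 118 TPM in IP and 13.7 and 16.9 TPM in input at days 18 and 27 (log2 difference -0.97 ± 0.28, adjusted p = 0.0175). For Vim they were 206 and 125 TPM in IP and 32.1 and 42.2 TPM in input at days 18 and 27 (log2 difference -1.13 ± 0.18, adjusted p = 0.00363). In Stmn1 and Vim the IP mean was lower and the input mean higher at day 27. The call for Prox1 came with IP means that differed little, at 513 and 476 TPM in IP and 192 and 262 TPM in input at days 18 and 27 (log2 difference -0.55 ± 0.17, adjusted p = 0.0243). Against day 11, the same genes had changes of -0.67 ± 0.27 for Stmn1, 0.05 ± 0.21 for Dpysl3, -0.29 ± 0.28 for Sox4 and -0.60 ± 0.18 for Vim, none of them called.

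In the cell cycle list 6 of 30 genes had a larger difference at day 27 than at day 18 and 1 a smaller one. The shares over all genes tested were 19.0% and 7.14%, so the larger count is near that of all genes. In the comparison with day 11 the list counts were none and 10, beside 1.46% and 0.323% of all genes. Mki67, a marker of dividing cells that was named after its values were seen, had means of 15.9 and 14.6 TPM in IP and 9.22 and 4.69 TPM in input at days 18 and 27 (log2 difference 0.75 ± 0.25, adjusted p = 0.0326), so its IP level was nearly the same and its input level was lower at day 27. Ccnb1 had means of 10.6 and 7.26 TPM in IP and 15.8 and 4.58 TPM in input at days 18 and 27 (log2 difference 1.17 ± 0.40, adjusted p = 0.036). Mcm3, a helicase subunit and the gene with a smaller difference, had means of 31.1 and 20.1 TPM in IP and 5.12 and 5.44 TPM in input at days 18 and 27 (log2 difference -0.65 ± 0.24, adjusted p = 0.049). In the mature granule neuron list 1 was larger and 2 were smaller, in the glutamate receptor list 0 and 1, and in the ion channel list none in either direction. For Icam5 the change was 1.16 ± 0.17 against day 11 and 0.34 ± 0.17 against day 18, and for Top2a -0.92 ± 0.22 and -0.12 ± 0.22, of which those against day 18 were not called.

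Last, the difference between IP and input was compared between running and sedentary mice at day 27. The interaction called 2 of 18731 genes with a larger difference in running mice, which is 0.0107%, and 197 with a smaller one, which is 1.05%. None of the 197 was in the stem cell, cell cycle, progenitor, immature or mature granule neuron lists. These lists hold 18, 30, 18, 23 and 22 tested genes, so at 1.05% of all genes hardly any call would fall in them. In 193 of the 197 both running input libraries lay above both sedentary ones. A high running input makes the difference smaller, so this count follows in part from how the 197 were picked. Only a provisional or clone name was given for 96. The shares of these 2 traits over all genes were not counted. Of 687 olfactory receptor genes tested 14 were smaller, against 1.05% of all genes. The olfactory receptor level itself was higher in running than sedentary inputs and lower in running than sedentary IP libraries, as given above, and its part in these calls was not tested. Syce3, a protein of the meiotic synaptonemal complex, had the largest change, at 2.90, 1.67, 9.07 and 11.2 TPM in the IP libraries and 7.51, 11.5, 0.76 and 0 TPM in the input libraries (log2 difference -4.74 ± 0.50, adjusted p = 0.0143). The 2 genes called larger were Hist1h2bb and Mir326, both named after their values were seen. Mir326 was at 12.0 and 10.4 TPM in the running IP libraries and listed at 0 in the other 6 libraries (log2 difference 3.61, adjusted p = 0.0202). At unadjusted p below 0.05 stood 3205 genes. After median-of-ratios scaling 1 gene was larger and 17 were smaller. Leaving out 1 library changed the 197 to between 0 and 310: to 0 without IP sedentary e, IP sedentary f or input running f, to 5 without input sedentary f, 42 without input sedentary e, 123 without IP running e, 131 without input running e and 310 without IP running f.

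Several neuronal genes were higher in both running than in both sedentary IP libraries without a call. Calb1 stood at 159 and 163 TPM in running and 125 and 108 TPM in sedentary IP libraries, and its interaction was 0.64 ± 0.18 (adjusted p = 0.126). For Prox1 the interaction was 0.37 ± 0.18 (adjusted p = 0.334). The 5 properly named genes of lowest p in that direction were Parm1, Ssr4, Minpp1, Mat2b and Prkar2b, with adjusted p from 0.0624 to 0.0809. Parm1, a mucin-like membrane protein, stood at 45.4, 42.9, 29.4 and 28.1 TPM in the IP libraries and 24.2, 22.8, 28.0 and 26.9 TPM in the input libraries (log2 difference 0.82 ± 0.17, adjusted p = 0.0624). With 2 libraries per group, a p above the threshold does not show that running and sedentary mice were alike.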

How the data were processed

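RNA sequencing values of 24 libraries of dentate gyrus input and ribosome IP were used, with 8 at day 27. The deposited tables give TPM per gene, which the authors made with RSEM on mm10, per the submitters' processing notes; the sources used here give no versions, filters or strand setting of the counting. TPM keeps no depth, so precision rests on the spread between libraries.

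The 23306 gene names were used as deposited; 21661 were found in GENCODE M21, which gave coordinates and lengths, and 27 date-like names were not named. Genes with a mean of at least 1 TPM were tested on log2(TPM + 1) with limma 3.58.1 (R 4.3.3; trend and robust options), with Benjamini-Hochberg adjustment over all genes tested and a threshold of 0.05. IP against input, and its interaction with running, were fitted on the 8 day 27 libraries. The comparisons with days 11 and 18 were fitted on all 24 libraries in 12 groups. The steps were tested on simulated data. Levels of olfactory receptor and nuclear RNA genes were compared by an exact permutation test; a planned list of mitochondrially encoded genes had no entry in the table.

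Samples were grouped by their labels. Whether IP and input libraries of the same letter share mice is not stated. Their deviations from the group means had a correlation of -0.035 in running and -0.018 in sedentary mice. For deviations from the fraction means it was -0.22 to -0.093. No block was used in the main fits, but with 2 libraries per group these values cannot settle whether the letters are pairs. The comparison and the 39 gene lists were chosen with earlier results of these data known. The text names, for IP against input, the 12 largest differences in each direction among properly named genes of at least 5 TPM whose arms did not overlap, up to 6 called members of lowest p per list, and 10 fixed genes; for the other comparisons, the 8 largest in each direction, or the 5 of lowest p where fewer than 5 passed. Other names were chosen after values were seen. Alternatives were other pseudocounts (0.1 and 5), other filters, median-of-ratios scaling, other limma settings, other sets of libraries, a replicate block, and leaving out each library. Promoter sequences are from RefSeq, GRCm38.p6. Results for some genes are not reported here.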

Additional observations from a re-analysis of the deposited data

Results flagged for a closer look

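Within the groups of 4 libraries at day 27, 146 tests for a single library far from the other 3 found 11, and chance alone gives about 1 in 20. The IP library running e lay apart for Neurod1 at 257 TPM, Calb2 at 247 TPM, the immature neuron list at a mean log2(TPM + 1) of 7.74 and Olfr586 at 0.88 TPM. The IP library sedentary f lay apart for Birc6 at 1140.0 TPM. Among input libraries, running f lay apart for Vsnl1 at 307 TPM, for the neuropeptide list at a mean log2(TPM + 1) of 3.62 and for the nuclear RNA list at 7.19. Sedentary f lay apart for Gfap at 299.7 TPM and Dynlt1b at 3.67 TPM, and running e for Sptb at 89.2 TPM.

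The IP minus input difference changed between days by the test of that change itself (limma, adjusted p below 0.05). On the log2(TPM + 1) scale, and among properly named genes that reached 5 TPM in a group, the largest increases from day 11 to day 27 were Lars2 at 1.99, Slc8a2 at 1.46, Ncdn at 1.45, Rims4 at 1.36, Cdhr1 at 1.31, Egr3 at 1.25, Cacng8 at 1.19 and Icam5 at 1.16, and the largest decreases were Neil3 at -2.07, Ccnb1 at -1.95, Shcbp1 at -1.89, Ncapg at -1.69, Neurod4 at -1.67, Mad2l1 at -1.60, Ckap2l at -1.60 and Vmn2r85 at -1.55. From day 18 to day 27 the largest increases were Defa21 at 3.71, Tmed11 at 3.54, Prl2c2 at 3.40, Olfr1057 at 3.22, Arl9 at 3.14, Magea6 at 3.04, Olfr723 at 3.0 and Olfr1270 at 2.99, and the largest decreases were Tmsb15l at -3.11, Plac9a at -2.93, Spa17 at -1.89, Eapp at -1.58, Psmg4 at -1.49, Tnnc1 at -1.48, Smim11 at -1.47 and Peg3as at -1.46. Between running and sedentary mice at day 27 the largest negative interactions were Syce3 at -4.74, Olfr1219 at -3.47, Lyzl1 at -3.45, Dynlt1c at -3.36, Sult2a7 at -3.33, Myf6 at -3.32, Ly6i at -3.21 and Vmn1r224 at -3.12.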

How the results depend on the processing

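Of the genes named for IP against input at day 27, 3845 results over all alternatives kept direction and call, 52 lost the call, 1 gained it and 1 turned: Gfap was at -0.0059 under median-of-ratios scaling. That scaling gave 4210 genes higher and 5211 lower in IP, 1 larger and 17 smaller in running mice and 106 smaller against day 11, and set the nuclear RNA level at 0.22. Leaving out 1 library gave 6353 to 7447 higher and 2470 to 3259 lower. Small list counts moved as well, such as 3 to 7 ribosomal protein, 1 to 4 oxidative phosphorylation and 0 to 3 small nucleolar RNA genes higher, and 1 to 4 histone and 3 to 5 signalling genes lower. Leaving out 1 library gave 88 to 861 larger and 14 to 229 smaller against day 11, 1788 to 4157 and 525 to 1829 against day 18, and 0 to 12 larger and 0 to 310 smaller in running mice. A pseudocount of 0.1 gave 1 larger and 130 smaller in running mice and 1590 larger against day 18. A minimum mean of 5 TPM gave 1 larger in running mice and 573 larger against day 18. Without limma's trend and robust options, 1 was larger in running mice, and 143 were larger and 39 smaller against day 11. The running comparison fitted on all 24 libraries gave 0 larger and 2 smaller, at 3205 genes of unadjusted p below 0.05 in the fit of 8. The 16 libraries of days 11 and 27 alone gave 113 larger and 23 smaller. Whether IP and input libraries of the same letter are paired is not stated in the labels. With the replicate letter as a block, 86 were smaller in running mice, and 3 were larger and 2 smaller against day 11. Against day 18, 924 were smaller under the block, and IP against input had 6386 higher and 2328 lower. Under the block the counts against day 11 were 1 cell cycle gene smaller, and 0 mature granule neuron, 0 glutamate receptor and 0 ion channel genes larger. The causes were not tested. The depth behind low values is unknown.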
